A study of Mus musculus with 24 samples.

Results

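Circadian clock output genes were examined in the embryonic jaw, in mice that lack the type II TGF-beta receptor in the neural crest and in their littermates. The set comprised 10 genes of 18194 represented on the arrays: Dbp, Tef, Hlf, Per1, Per2, Per3, Nr1d1, Nr1d2, Cry1 and Clock. The genes were chosen by symbol after Dbp had been seen to be higher in mutant arrays, so the Dbp difference between genotypes is given as a description, without a test. Each gene was read from the probe set with the highest mean over all arrays. Of the 10 genes, 9 passed the filter on low values, and Nr1d1 did not.

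Affymetrix mouse arrays measured RNA of both jaws at embryonic day 13.5, and each mandible and maxilla had been cut in its distal and its proximal part. The 24 arrays formed 8 groups of 3: each of the 4 jaw pieces from control and from mutant embryos. Litters came from Wnt1cre;Tgfbr2fl/+ animals crossed to Tgfbr2fl/fl animals, on a background labelled C57B6. Mutants were embryos recognised by a cleft palate and a defect of the skull vault, and controls were their littermates. All embryos of this cross inherit at least 1 floxed Tgfbr2 allele, and the Cre status of the controls was not given in the sources used here. Wnt1-Cre acts in the neural crest, which forms most of the jaw mesenchyme. Epithelium, skeletal muscle, the endothelium of vessels and blood cells of the jaw arise elsewhere and keep the receptor. The sources used here do not say whether the replicates were separate animals or pools, so p-values reflect only how far these samples spread, and that spread may be technical. The hour at which litters were collected was not given either.

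The mammalian clock is a transcriptional loop. CLOCK, paired with BMAL1 (encoded by Arntl), activates genes through E-boxes, and the PER and CRY proteins made from those genes return to block the pair. A side loop holds the REV-ERB repressors, encoded by Nr1d1 and Nr1d2, which act on Arntl against the ROR activators. DBP, TEF and HLF are transcription factors of the PAR bZIP family that carry clock phase to D-box genes, where NFIL3 opposes them. In adult tissues with a running clock, Dbp, the Per genes and Nr1d1 are high in one part of the day, and Arntl and Npas2 in the opposite part. Rhythms in embryonic tissue at midgestation are generally described as weak or absent.

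The RefSeq promoter table (GRCm38.p6) held 13 windows for 9 of the 10 genes, from 250 bases before to 50 bases after a transcription start. Per2 was not matched. The 4 windows below are shown because they cover the gene with the largest difference between genotypes (Dbp), an E-box in a core clock gene and in a PAR bZIP gene, and the windows' D-boxes. Dbp (chr7:45704997-45705296, plus strand), Per1 (chr11:69098699-69098998, plus strand), Tef (chr15:81802423-81802722, plus strand) and Per3 (chr4:151044616-151044915, minus strand) are written 5′ to 3′ on the gene's strand. Capitals mark motif matches on either strand.
Dbp: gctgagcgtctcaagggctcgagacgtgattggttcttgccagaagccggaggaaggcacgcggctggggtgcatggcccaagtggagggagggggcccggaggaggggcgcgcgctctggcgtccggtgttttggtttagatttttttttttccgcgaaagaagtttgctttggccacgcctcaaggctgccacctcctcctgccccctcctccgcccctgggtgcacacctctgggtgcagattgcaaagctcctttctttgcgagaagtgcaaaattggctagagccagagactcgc
Per1: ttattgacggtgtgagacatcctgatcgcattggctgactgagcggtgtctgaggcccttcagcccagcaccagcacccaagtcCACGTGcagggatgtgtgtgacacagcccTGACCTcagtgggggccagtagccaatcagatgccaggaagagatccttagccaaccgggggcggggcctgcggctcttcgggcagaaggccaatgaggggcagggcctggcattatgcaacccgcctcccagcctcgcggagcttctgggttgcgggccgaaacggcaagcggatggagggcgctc
Tef: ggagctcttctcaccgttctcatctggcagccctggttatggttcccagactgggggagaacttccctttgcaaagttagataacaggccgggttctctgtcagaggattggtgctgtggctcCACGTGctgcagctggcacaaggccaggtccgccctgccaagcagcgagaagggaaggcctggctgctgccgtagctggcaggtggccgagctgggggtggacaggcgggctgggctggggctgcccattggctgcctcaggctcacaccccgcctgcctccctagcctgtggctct
Per3: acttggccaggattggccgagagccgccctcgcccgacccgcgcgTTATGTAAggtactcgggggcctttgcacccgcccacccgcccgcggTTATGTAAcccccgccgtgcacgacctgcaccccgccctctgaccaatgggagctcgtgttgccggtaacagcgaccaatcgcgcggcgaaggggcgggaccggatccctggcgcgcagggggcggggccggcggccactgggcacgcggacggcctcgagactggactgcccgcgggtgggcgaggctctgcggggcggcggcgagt

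The E-box searched was CACGTG, which is its own reverse complement, and it lay in 4 windows of 3 genes. Its first base stood at -166 in Per1, -127 and -138 in the 2 Tef windows, and -60 in Cry1, counted from the transcription start. Of all 32851 promoter windows in the table, 7.15% held it. The D-box (TTATGTAA or TTACGTAA, and their reverse complements) was found only in Per3 among the 13 windows, at -205 and -158, and in 1.06% of all windows. The nuclear receptor element AGGTCA, a core of the sites that ROR and REV-ERB proteins bind, was searched on both strands. It was found at -137 in Per1, -77 in Nr1d2 and -119 in Clock, and in 16.3% of all windows. No 2 motifs overlapped in the windows shown. The Dbp window held none of the 3 sequences, which says nothing about sites outside these bases. A match is a description of the letters and not evidence of binding.

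The arrays carried the markers of the dissected tissue. Jaw mesenchyme markers (Prrx1, Prrx2, Twist1, Msx1, Alx4) were above the filter, 5 of 5 genes measured. Of 4 mandibular genes (Hand2, Dlx5, Dlx6, Dlx3), 2 were higher in control mandible than maxilla and 0 lower, with a median difference of 0.35. Over all genes 9.22% differed there. The mandibular selector Hand2 was 4.34 ± 0.321 (log2, SE) higher in control mandible than maxilla. The 4 arrays that share a genotype and a replicate number are called a set here, since they deviated together. On 8 mutant arrays (sets 1 and 3) the 3′ Gapdh probe set exceeded the 5′ one by 0.25 to 0.77, a difference that grows as RNA degrades. The difference was -0.07 to 0.16 on the 12 control arrays and 0.04 to 0.10 in mutant set 2. Mutant sets 2 and 3 held both Xist (12.89 to 13.69) and Y-linked transcripts (mean 8.34 to 9.43), as RNA pooled from both sexes would. The 3 control sets were each high in only 1 of them, so replicates of mutants and controls may not be alike. The average genotype differences of the 9 genes tested, and of some genes of other lists, are therefore given with and without mutant sets 1 and 3. Calls in single regions and between jaws or ends are not given both ways. Without mutant sets 1 and 3, only mutant set 2 remains, so those differences carry no spread among mutant sets. The part of RNA quality and of embryo sex in the results below was not tested.

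Dbp was higher on every mutant array than on every control array of the same region, in all 4 regions. In distal mandible the Dbp levels (RMA log2) were 9.60, 9.47 and 9.68 on control arrays and 9.85, 9.91 and 10.13 on mutant arrays. Proximal mandible gave 9.52, 9.42 and 9.44 in controls against 9.72, 9.81 and 9.97 in mutants. Both mandibular ends thus separated the genotypes, without overlap of arrays. In distal maxilla, where Dbp was highest in both genotypes, controls read 9.96, 9.94 and 9.87 and mutants 10.28, 10.52 and 10.45. Proximal maxilla read 9.65, 9.56 and 9.71 in controls and 10.11, 10.24 and 10.23 in mutants. The difference, mutant minus control, was 0.38, 0.37, 0.49 and 0.56 in the order of regions just given (SE 0.0842 each). Averaged over regions it was 0.45 ± 0.0421 (log2, SE), a 1.37-fold higher signal. In bulk tissue a larger number of expressing cells and more RNA per cell cannot be told apart. Without mutant sets 1 and 3 the Dbp difference was 0.47.

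The same pattern of complete separation in all 4 regions was seen for 2.32% of the 13850 genes tested, and Dbp stood 244th from the highest average difference. The second Dbp probe set, also above the filter on all arrays, showed a smaller difference of 0.15 ± 0.0589. It gave 0.18 and 0.16 in distal and proximal mandible, and 0.07 and 0.21 in distal and proximal maxilla (SE 0.118 each). That probe set lay lower, at a mean of 8.16, and both probe sets name Dbp alone. The array levels and the complete separation given above were read from the brighter probe set alone.

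**Figure D1:**
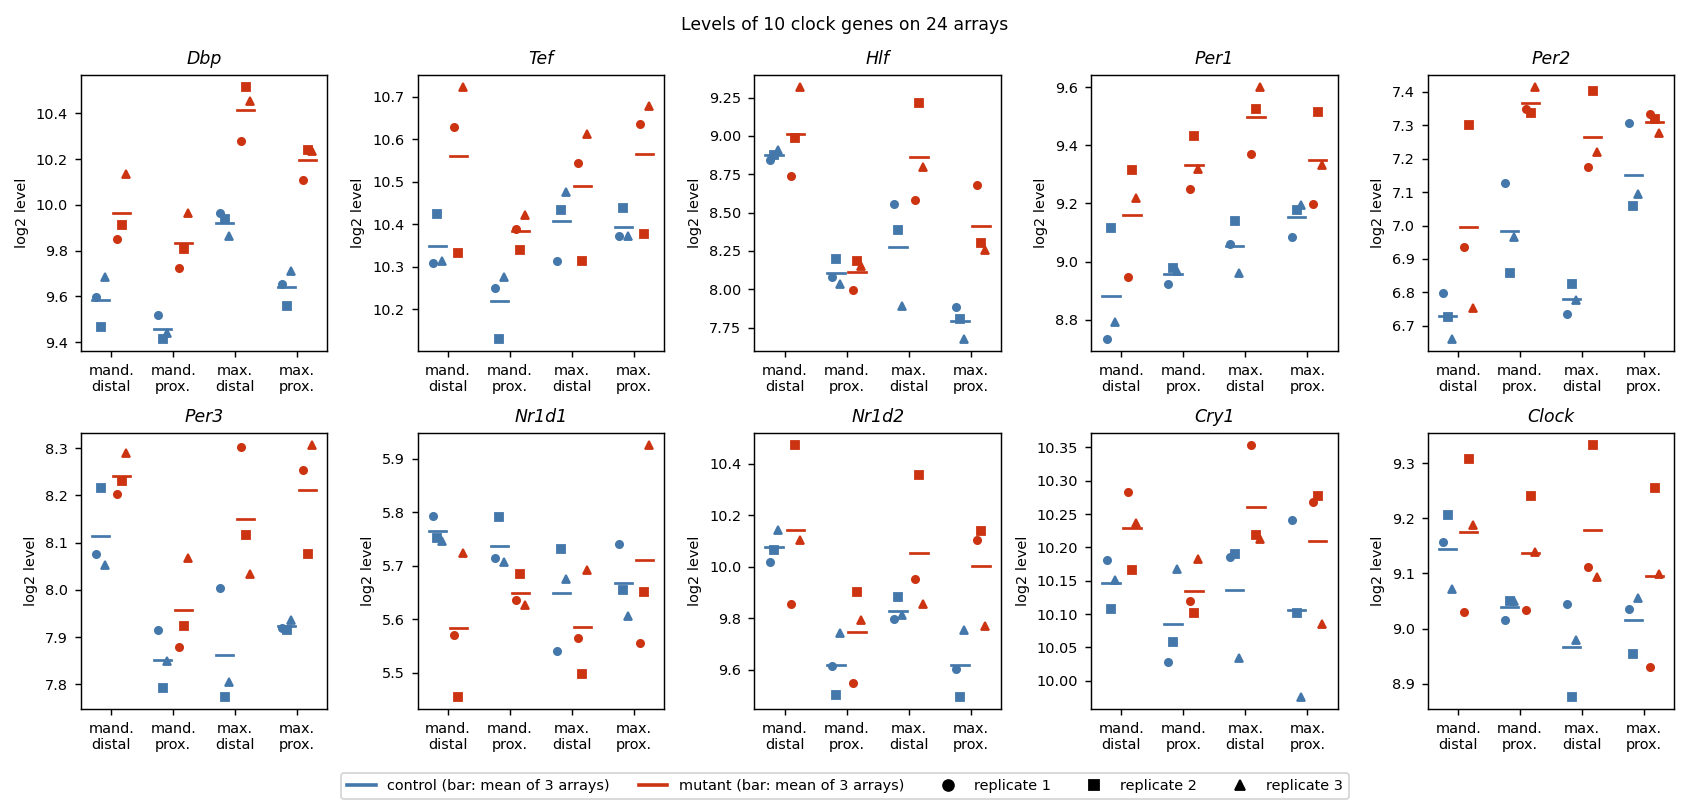
Levels of the 10 genes (log2, vertical axis, own scale per panel) on the 24 arrays, by region (horizontal axis) and genotype; symbols mark replicate numbers and bars the mean of 3 arrays. Dbp mutants sit above Dbp controls in each region, and Nr1d1 stays between 5.46 and 5.93.

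The comparison of genotypes asked whether the higher Dbp came with differences in other clock genes. Of the 8 other genes tested, 6 were higher in mutants (Tef, Hlf, Per1, Per2, Per3, Nr1d2), none was lower, and Cry1 and Clock did not pass. The count was 2 of 8 (Per1 and Per2) when arrays of a set were modelled as correlated, and 0 of 8 with 1 value per set. The test was limma's moderated test on the average of the 4 regions, with Benjamini-Hochberg adjustment over all 13850 genes and a threshold of 0.05. In this comparison 33.7% of all genes passed in either direction and 18.3% were higher in mutants. Since the genes were chosen from this contrast, nothing is read from the count. The median difference of the 8 genes was 0.20, beside 0.02 over all genes tested. The exact permutation test over set means cannot go below p = 0.1, which it reached for Hlf, Per1, Per2, Per3, Nr1d2 and Cry1, with 0.3 for Tef and Clock. The same separation of set means, every mutant set above every control set, was seen for 16.2% of all genes.

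Among the core repressors, Per1 and Per2 had almost the same average difference. Per1 encodes a PER protein that is also induced quickly by glucocorticoids and other signals. In distal mandible Per1 read 8.74, 9.12 and 8.79 on control arrays and 8.95, 9.32 and 9.22 on mutant arrays, which overlapped. In proximal mandible control arrays read 8.92, 8.98 and 8.97 and mutant arrays 9.25, 9.43 and 9.32. Distal maxilla gave 9.06, 9.14 and 8.96 in controls and 9.37, 9.52 and 9.60 in mutants. Neither of these 2 regions had overlapping Per1 arrays. In proximal maxilla the controls (9.08, 9.18, 9.20) and mutants (9.20, 9.51, 9.33) did not overlap, but the highest control and the lowest mutant array both rounded to 9.20. The average Per1 difference was 0.32 ± 0.0529 (log2, SE; limma adjusted p = 0.00015), a 1.25-fold change. It was larger, at 0.43, without mutant sets 1 and 3.

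Per2, the partner of Per1 in the repressing complex, was read from a dimmer probe set. Control distal mandible gave 6.80, 6.73 and 6.66 and mutant distal mandible 6.94, 7.30 and 6.75, with 1 mutant array inside the control range. In distal maxilla the controls (6.74, 6.82, 6.78) lay below the mutants (7.17, 7.40, 7.22). Control proximal maxilla was already high for Per2, at 7.31, 7.06 and 7.09, and the mutant arrays there read 7.33, 7.32 and 7.28. In proximal mandible controls read 7.13, 6.86 and 6.96 and mutants 7.35, 7.34 and 7.41. The average Per2 difference was 0.32 ± 0.0529 (limma adjusted p = 0.00015), and 0.43 without mutant sets 1 and 3. The other 2 Per2 probe sets, with means of 6.27 and 6.49 near the filter level of 6.25 to 6.34, gave differences of -0.08 and -0.05. The Per2 result therefore rested on 1 of its 3 probe sets.

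Per3, which is not needed for the clock to run in mice, carried the D-box matches shown above. Its control arrays ranged from 7.77 to 8.21 and its mutant arrays from 7.88 to 8.31. The average Per3 difference was 0.20 ± 0.0403 (limma adjusted p = 0.00088). It was 0.29 in each end of the maxilla, 0.13 in distal mandible and 0.10 in proximal mandible. Of the other 5 Per3 probe sets, the one with a mean of 6.30, close to the filter level, gave 0.30. The remaining 4, with means of 5.10 to 6.05, gave -0.04, 0.05, 0.07 and 0.00. Without mutant sets 1 and 3 the Per3 difference was 0.15.

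Cry1, the other repressor of the loop, differed little. Its set means were 10.16, 10.11 and 10.08 in controls and 10.26, 10.19 and 10.18 in mutants. The mutant set means lay above the control ones, by 0.02 at the nearest pair. The average difference of 0.09 ± 0.0363 did not pass (limma adjusted p = 0.063), and it was 0.07 without mutant sets 1 and 3.

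Of the other PAR bZIP genes, Hlf, which acts in the same D-box pathway as Dbp and in blood stem cells, overlapped between genotypes in proximal mandible, with controls at 8.08, 8.20 and 8.03 and mutants at 7.99, 8.18 and 8.15. In distal mandible Hlf read 8.84, 8.88 and 8.91 in controls and 8.74, 8.99 and 9.32 in mutants, again with overlap. In both ends of the maxilla every mutant array lay above every control array. Distal maxilla controls read 8.55, 8.39 and 7.89 and mutants 8.58, 9.21 and 8.80. Proximal maxilla controls read 7.89, 7.81 and 7.68 and mutants 8.68, 8.30 and 8.26. The Hlf difference was 0.14 and 0.01 in distal and proximal mandible, and 0.59 and 0.62 in distal and proximal maxilla (SE 0.171 each). Its average was 0.34 ± 0.0854 (limma adjusted p = 0.0051), and it was 0.41 without mutant sets 1 and 3. The second Hlf probe set gave 0.54 ± 0.126.

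Tef, the thyrotroph embryonic factor, followed the sets. Its control set means were 10.31, 10.36 and 10.36, and its mutant set means 10.55, 10.34 and 10.61. Mutant set 2 lay within the control range, and the raised sets 1 and 3 were those with the larger Gapdh difference. The average Tef difference was 0.16 ± 0.0485 (limma adjusted p = 0.018). Without mutant sets 1 and 3 it was -0.0016, and with the Gapdh difference as a covariate it was -0.0023. The remaining Tef probe sets, with means of 6.76 and 6.05, gave -0.06 and -0.08.

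Of the REV-ERB genes, Nr1d1 was dim on every array (5.46 to 5.93, below the 40th percentile of its array each time) and was not tested. Its set means were 5.70, 5.73 and 5.68 in controls and 5.58, 5.57 and 5.74 in mutants. Nr1d1 thus has no usable level here, although it is among the strongest rhythmic genes of adult tissues. Nr1d2, its close relative, was well above the filter on all arrays. The Nr1d2 set means were 9.76, 9.74 and 9.86 in controls and 9.86, 10.22 and 9.88 in mutants. The nearest mutant and control sets both rounded to 9.86, and mutant set 2 stood well above the rest. The average difference was 0.20 ± 0.0729 (limma adjusted p = 0.04). With mutant set 2 as the only mutant set it was 0.43.

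Clock, which encodes the activating partner of BMAL1, showed set means of 9.06, 9.02 and 9.04 in controls and 9.03, 9.28 and 9.13 in mutants. Mutant set 2 was again the highest, and mutant set 1 lay in the control range. The average difference of 0.11 ± 0.0438 did not pass (limma adjusted p = 0.072). It was 0.24 with mutant set 2 as the only mutant set, a fit without any spread among mutant sets. The other Clock probe sets at similar brightness gave 0.12 and 0.06.

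**Figure D2:**
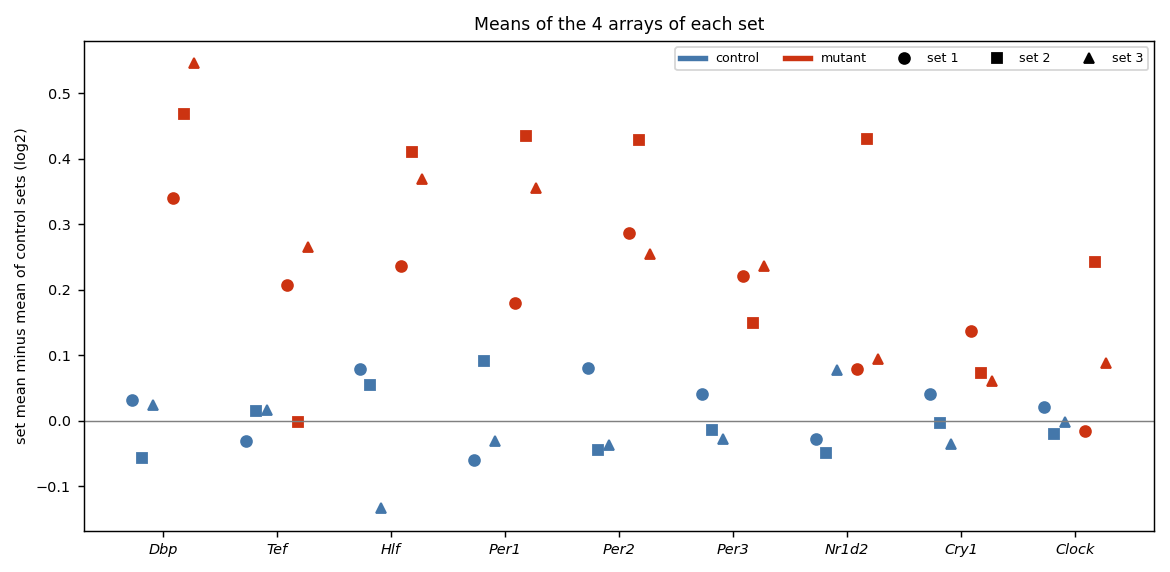
Mean of the 4 arrays of each set minus the mean of the 3 control sets (log2, vertical axis) for the 9 genes tested; colours mark genotype and symbols the set number. Tef is at the control level in mutant set 2, and Nr1d2 and Clock are highest there.

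How many of the 8 genes passed depended on what counted as a replicate. With the set as a random block (estimated correlation 0.401), Per1 (limma adjusted p = 0.0083) and Per2 (0.019) passed. Hlf (0.15), Per3 (0.065), Nr1d2 (0.22) and Tef (0.12) did not, and 11.6% of all genes passed in that fit. With 1 value per set, 3 against 3, none of the 8 passed in limma. There 4 had an unadjusted p under 0.05, and 0.578% of all genes passed. The lowest adjusted p was then 0.074, for Per2. Averaging all probe sets of a gene left 7 of the 8 genes above the filter, of which Hlf (0.44) and Per1 (0.32) passed. Per2 gave 0.06 and Tef 0.00. In that fit 3660 of 13156 genes passed.

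All 8 genes were higher in mutants in each of the 4 regions by group means, a pattern that 30% of all genes shared. Single regions gave 8 calls of 32 in limma. None of the 8 genes passed in distal mandible, where 0.895% of all genes did and 3 of the 8 had an unadjusted p under 0.05. In proximal mandible Per1 (0.38, adjusted p = 0.044) and Per2 (0.38, 0.041) passed, beside 5.36% of all genes. In distal maxilla Hlf (0.59, 0.045), Per1 (0.44, 0.018), Per2 (0.49, 0.011) and Per3 (0.29, 0.037) passed, beside 7.08% of all genes. In proximal maxilla Hlf (0.62, 0.039) and Per3 (0.29, 0.043) passed, beside 5.7% of all genes. Per1 and Per2 passed in the same 2 regions and Hlf in the maxilla alone. Every mutant array lay above every control array for 0, 3, 6 and 4 of the 8 genes of distal mandible, proximal mandible, distal maxilla and, last, proximal maxilla. The shares over all genes were 9.26%, 15.4%, 12% and 13.9%. Leaving out control set 1 or control set 3 left 0 of 32 calls in limma (10 and 9 with an unadjusted p under 0.05). Leaving out control set 2 left 1. Calls over all 13850 genes fell as well, from 124, 742, 980 and 789 in the same order of regions. Without control set 1 they were 6, 60, 144 and 100. Without control set 2 they were 5, 286, 215 and 227, and without control set 3 they were 2, 108, 58 and 84.

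**Figure D3:**
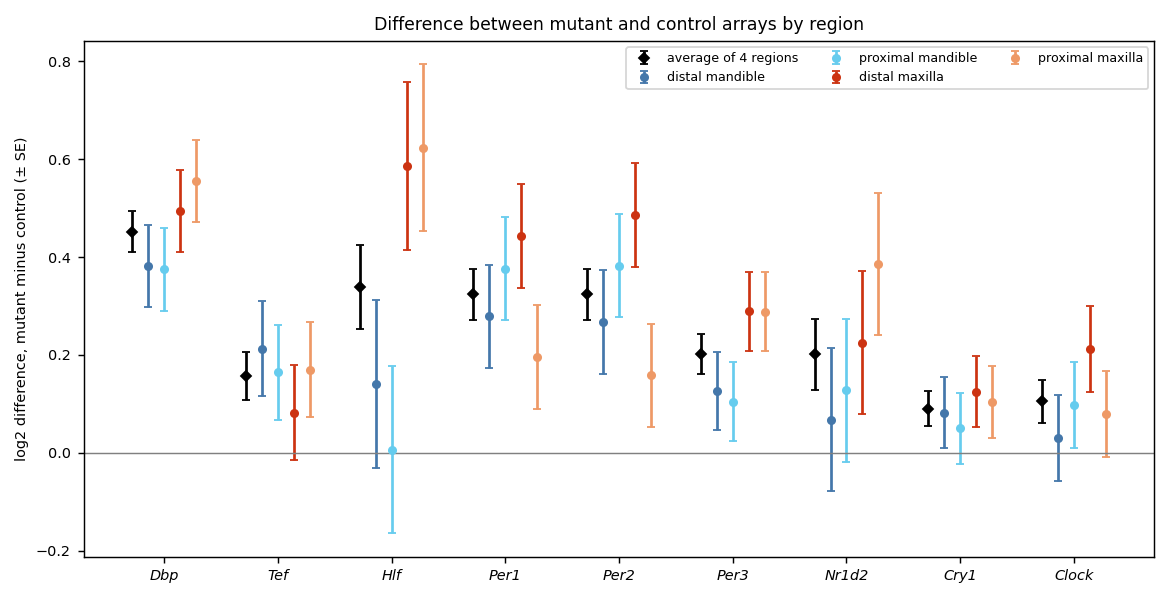
Difference between mutant and control arrays (log2, mean ± SE, vertical axis) for the 9 genes tested, as the average (diamonds) and in each of the 4 regions (circles). Dbp is above 0.3 in all regions, and Hlf lies at 0.14 and 0.01 in the mandible and at 0.59 and 0.62 in the maxilla.

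The uneven Hlf values were tested directly. The Hlf difference between genotypes was 0.53 lower in the mandible than in the maxilla (-0.53 ± 0.171, unadjusted p = 0.00587 in limma), which did not pass over all genes. Per3 gave -0.17 ± 0.0806 (unadjusted p = 0.0448), and Dbp -0.15 ± 0.0842. Of 9 genes, 2 had an unadjusted p under 0.05 between jaws and 0 between ends. After adjustment none of the 18 tests passed, nor did any of the 13850 genes (0% in each comparison). A genotype effect that differed between regions was thus not shown for any of the 9 genes.

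Among control arrays alone, which the choice of genes did not use, 4 of 9 genes differed between the distal and proximal ends and 2 between the jaws. The ends differed for 16.4% of all genes and the jaws for 9.22%. Hlf was 0.63 ± 0.121 higher distally (limma adjusted p = 0.001), a 1.55-fold difference, and 0.46 ± 0.121 higher in the mandible (0.019). From the array values given above, distal mandible held the highest Hlf and proximal maxilla the lowest, with 1 distal maxilla array at 7.89, level with the highest proximal one. Nr1d2 was 0.33 ± 0.103 higher distally (0.031), with control distal mandible at 10.02 to 10.14 and proximal mandible at 9.50 to 9.74. Dbp was 0.20 ± 0.0595 higher distally (0.023) and 0.26 ± 0.0595 lower in the mandible (-0.26, 0.0072). Per2 ran the other way along the jaw: it was lower distally by 0.31 (-0.31 ± 0.0748, 0.0061). Hlf between the ends was the call that remained when any 1 control set was left out. Without control set 1, Hlf remained in both comparisons (2 calls). Without set 2, Hlf and Per2 remained between the ends (2 calls), and without set 3 Hlf alone (1 call). Calls over all genes fell too, from 2270 to 1008, 1137 and 1205 between the ends without control sets 1, 2 and 3. Between the jaws they fell from 1277 to 768, 486 and 478.

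Mutant arrays repeated part of this map. Hlf was 0.68 ± 0.121 higher distally (limma adjusted p = 0.00044) and Dbp 0.18 ± 0.0595 higher (0.042), beside 19.8% of all genes. Per2 at -0.21 (adjusted p = 0.058) and Nr1d2 at 0.22 (0.15) did not pass. With the set as a fixed replicate block, an alternative chosen after seeing the data, both passed (0.025 and 0.027). Between the jaws only Dbp passed, at -0.41 ± 0.0595 (0.0002), beside 10.2% of all genes. Hlf differed by -0.08 (0.81) between the jaws in mutants. With that block Per1 also passed between the jaws, at -0.18 in controls (0.021) and -0.18 in mutants (0.023). The second Dbp probe set gave -0.25 in controls and -0.22 in mutants between the jaws, and 0.09 and 0.02 between the ends.

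Cell types were not evenly spread over these pieces. In controls 9 of 10 skeletal muscle markers were lower distally (median -1.95) and 9 of 10 lower in the mandible (median -1.99). Of all genes, 16.4% differed between the ends in controls and 9.22% between the jaws. The mean of the muscle list was 7.95 to 9.29 in control distal mandible and 11.43 to 12.13 in the other control groups. Of 7 epithelial markers, 5 were higher distally (median 1.31) and 4 higher in the mandible, and 4 of 8 neuronal markers were lower distally. In mutants 9 of 10 muscle markers were lower distally and 6 of 10 in the mandible, beside 19.8% and 10.2% of all genes. Their part in the regional differences of Hlf, Dbp, Nr1d2 and Per2 was not tested. Between genotypes 0 of 10 muscle, 0 of 8 neuronal and 1 of 7 epithelial markers passed in the average, beside 33.7% of all genes. Within regions 0 of 10 muscle markers passed, but their median difference was 0.87 in distal mandible (6 of 10 with an unadjusted p under 0.05 in limma) and -0.78 in distal maxilla (5 of 10). The epithelial median was 0.80 in proximal maxilla, where Cdh1 passed (0.90 ± 0.161, adjusted p = 0.0043). The part of these cell types in the regional calls of Hlf, Per1, Per2 and Per3 was not tested. In the average, 3 of 5 red blood cell, 2 of 7 macrophage and 3 of 6 endothelial markers were lower in mutants, with 1 endothelial marker higher. Over all genes 33.7% passed there in either direction, and 2142 of 13850 were lower. Nothing is read from these counts about cell numbers.

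**Figure D4:**
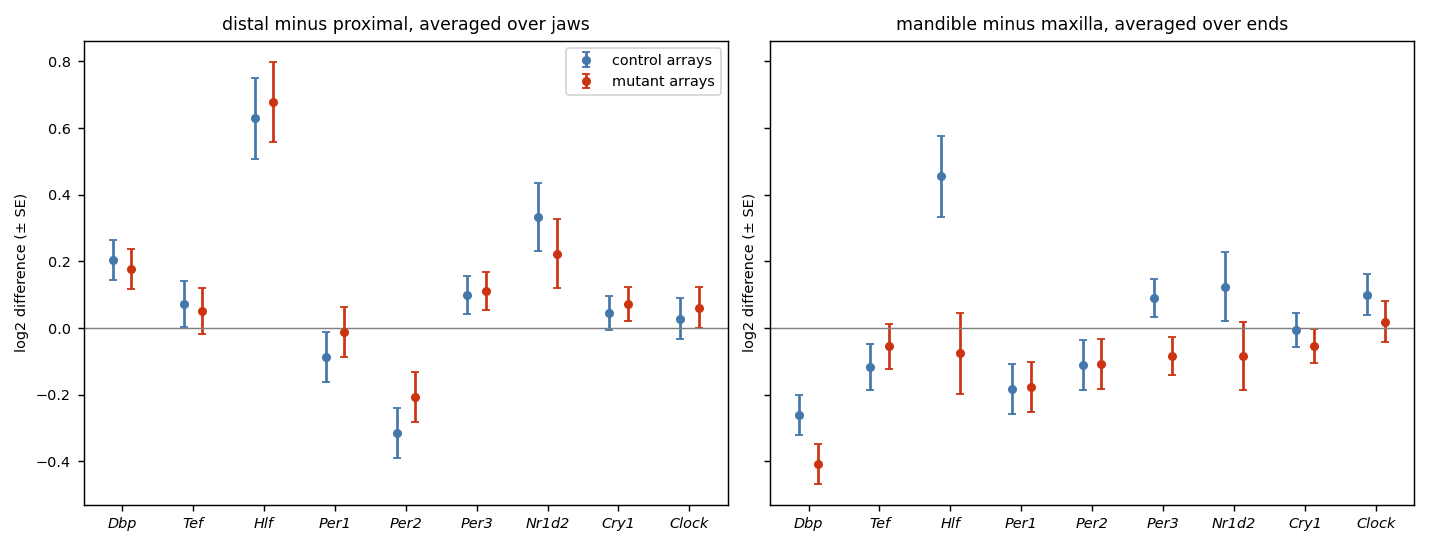
Differences between jaws (mandible minus maxilla) and between ends (distal minus proximal) for the 9 genes tested (log2, mean ± SE, vertical axis), with control and mutant arrays in separate colours. Hlf is 0.63 and 0.68 higher distally, and Dbp is lower in the mandible in both genotypes (-0.26 and -0.41).

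The other clock genes were read in the same average comparison, in which 33.7% of all genes passed and 18.3% were higher. Among the activators and ROR receptors, 5 were tested, 1 was higher and 0 lower, with a median of 0.04 beside 0.02 over all genes. Arntl, whose protein BMAL1 pairs with CLOCK, differed by 0.04 ± 0.0703 (limma adjusted p = 0.73). Npas2, which can take the place of CLOCK, differed by 0.31 ± 0.133 and did not pass (0.079). Npas2 was at -0.04 without mutant sets 1 and 3. Rora, which activates Arntl, was higher by 0.21 ± 0.0653 (0.019), a call lost with the set as a random block (0.22).

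Of 11 repressors and modifiers tested, 1 was higher and 1 lower, beside 33.7% of all genes, with a median of 0.07. Cipc, an inhibitor that binds CLOCK, was lower (-0.16 ± 0.0293, limma adjusted p = 0.00053). It also passed with the set as a random block (0.037), but not with 1 value per set (0.15). Fbxl21, a ligase subunit that acts on CRY proteins, was higher by 0.18 ± 0.0647 (0.037; 0.25 with the random block). Nfil3, which competes with DBP at D-boxes, differed by 0.12 and Bhlhe40, a repressor at E-boxes, by 0.06, and neither passed.

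Nfil3 did differ along the jaw, with 0.65 ± 0.108 more signal distally in controls (0.00028) and 0.72 ± 0.108 in mutants (8.5e-05). Its direction along the jaw was the same as that of Hlf and Dbp and opposite to that of Per2. Bhlhe40 was 0.58 ± 0.0699 higher in mutant mandible than maxilla (3.3e-05). Cry2 was lower distally in mutants (-0.29 ± 0.099, 0.046).

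Of 8 genes that are rhythmic in many adult tissues, 2 were higher and 3 lower in mutants, beside 33.7% of all genes that passed, with a median of -0.04. Usp2, a deubiquitinase with a strong daily rhythm, was higher by 0.38 ± 0.052 (limma adjusted p = 3.1e-05). It passed with the set as a random block (0.0012) but not with 1 value per set (0.086). In the main fit Usp2 also passed in 3 single regions, at 0.36 in proximal mandible, 0.37 in distal maxilla and 0.36 in proximal maxilla. Lonrf3 was higher by 0.18 ± 0.0552 (0.019). Noct, which encodes nocturnin, was lower (-0.14 ± 0.0312, 0.0019), as was Tsc22d3 (-0.17 ± 0.0466, 0.0088). Coq10b was lower (-0.18 ± 0.0583, 0.024), and this turned to 0.03 without mutant sets 1 and 3. Lonrf3 (adjusted p = 0.27), Noct (0.070), Tsc22d3 (0.092) and Coq10b (0.12) did not pass under the random block.

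**Figure D5:**
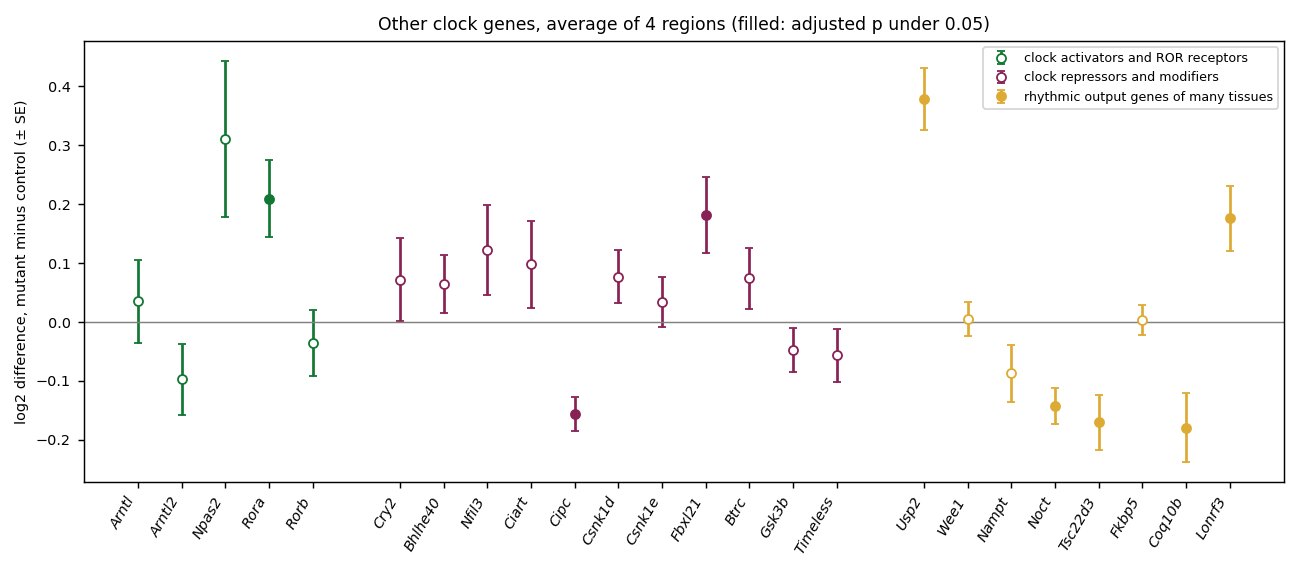
Average difference between mutant and control arrays (log2, mean ± SE, vertical axis) of the other clock genes and rhythmic output genes, grouped by list; filled circles passed an adjusted p of 0.05 in limma. Usp2 is highest among those filled at 0.38, and Arntl lies at 0.04.

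Likeness to Dbp was measured over the 24 arrays as Pearson's r with its Spearman rho, and is a description: the arrays share 8 groups, and both genotype and region enter the value. The 5 genes most like it were Aldh6a1 (r = 0.921, rho = 0.921), Diaph2 (0.914, 0.899), Pcdh9 (0.89, 0.917), Ric8a (0.882, 0.863) and Rab8b (0.88, 0.868). None of these belongs to a clock list. Their average differences between genotypes were 0.31, 0.31, 0.53, 0.31 and 0.21. Among the 8 genes tested beside Dbp, Per1 came closest, with r = 0.738 and rank 215 of 13849 genes. Likeness was not read out for genes of the other clock lists. Tef (0.563), Cry1 (0.537), Per3 (0.51), Nr1d2 (0.49), Hlf (0.445), Per2 (0.425) and Clock (0.323) followed.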

How the data were processed

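The 24 deposited columns, 1 per array, hold log2 values, and the submitters' processing notes name RMA. Its version and which arrays were normalized together are not given in the sources used. Of 45101 probe sets, 34958 name 1 gene, 932 several and 9211 none. Each of 18194 genes was read from its probe set with the highest mean. A gene was tested if that probe set exceeded its array's 40th percentile on at least 3 arrays (13850 genes).

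limma 3.58.1 (R 4.3.3, statmod 1.5.0) took all arrays in 1 fit, with a coefficient for each group, 16 residual degrees of freedom and eBayes defaults; errors are its standard errors unless marked. It was tested on simulated data. The number of arrays limits the precision. Gene names come from the platform annotation.

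The text names all 10 genes, the called and up to 4 further genes of each clock or glucocorticoid list, and the 5 genes most like Dbp. Genes and lists were chosen with earlier results of these data known. Set means, not used for limma calls, were compared with an exact two-sided permutation test.

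Distal and proximal deviations from the group means correlated within each set by 0.221 to 0.572 in controls and 0.321 to 0.691 in mutants. Mandible and maxilla correlated by 0.00396 to 0.377 and 0.201 to 0.697. Control and mutant arrays of the same number correlated by -0.134 to 0.403, so those numbers were not taken as pairs across genotypes. The alternatives changed the probe set rule, normalization, filter, block, covariate or arrays included.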

Additional observations from a re-analysis of the deposited data

How the results depend on the processing

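Of the 389 called values recomputed under an alternative, 257 kept their direction and call, 130 lost the call and 2 turned. Both were Tef, at -0.0023 with the Gapdh covariate and -0.0016 without mutant sets 1 and 3. Of 986 values not called, 31 became called, and 51 changed sign without becoming called. For the average between genotypes, 6 of 8 genes became 2 of 7 tested with the mean of all probe sets. They became 2 with the random block, 0 with 1 value per set, and 4 to 6 when 1 set was left out. Over all genes, 4671 calls of 13850 became 3660 of 13156 with the mean of all probe sets and 1612 with the random block. They became 80 with 1 value per set, and 2902 to 6971 when 1 set was left out. The 8 calls in single regions became 2 with the mean of all probe sets, 2 with no filter and 3 with the random block. They became 1 with the arrays of the region alone, and 0 to 8 when 1 set was left out. With 1 set left out, calls over all genes were 2 to 2912 in distal mandible and 60 to 1826 in proximal mandible. They were 58 to 3414 in distal maxilla and 84 to 2617 in proximal maxilla. The 6 jaw or end calls in controls became 3 of 16 with the mean of all probe sets and 1 to 6 when 1 set was left out. Over all genes, control calls between the ends went from 2270 to 1965 with that mean, and between the jaws from 1277 to 1085. With 1 set left out they were 1008 to 3253 between the ends and 478 to 1655 between the jaws. The 3 jaw or end calls in mutants became 6 with the random block, 5 with the Gapdh covariate and 2 to 3 when 1 set was left out. Over all genes, mutant calls between the ends went from 2737 to 4406 with the random block and 4183 with the Gapdh covariate. Between the jaws they went from 1406 to 2637 and 3129. With 1 set left out they were 1856 to 3259 between the ends and 916 to 1494 between the jaws. With the replicate number as a block across genotypes, which the pairing check did not bear out, the counts were 8, 8, 0, 7 and 4 for the average, single regions, differences of the effect, controls and mutants. Over all genes that block gave 5410 calls for the average and 0 for differences of the effect. It gave 310, 1120, 1488 and 1254 in the regions, in the order above. Between ends and jaws it gave 2714 and 1485 in controls, and 3237 and 1750 in mutants. With the set as a fixed block, chosen after seeing the data, controls gave 7, mutants 6 and differences of the effect 0. Over all genes the fixed block gave 3776 and 1955 calls in controls, 4584 and 2660 in mutants, and 0 for differences. Fewer samples entered the fits with sets left out. Without mutant set 2, calls over all genes in the average were 6971, beside 4671 in the main fit. The cause of the changes between settings was not tested. Repeated quantile normalization gave 6 genes for the average, beside 4627 of all 13850. With 3 sets a genotype, no two-sided exact test of set means can reach 0.05.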

Other observations

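Several genes that glucocorticoids induce in many tissues were read beside the clock genes, because Per1 answers to the same hormone. Of 8 such genes, 3 were higher in mutants and 1 was lower, beside 33.7% of all genes that passed, with a median difference of 0.10. Zbtb16, a zinc finger transcription factor, was higher by 0.49 ± 0.0632 (log2, SE, limma adjusted p = 1.9e-05). It did not pass with 1 value per set (0.056) but passed with the set as a random block (0.0052). Klf9 was higher by 0.33 ± 0.0677 (0.0011) and Dusp1 by 0.15 ± 0.0581 (0.047), calls lost with that block (0.055 and 0.27). Tsc22d3, which encodes the leucine zipper protein GILZ, was lower (-0.17 ± 0.0466, 0.0088), a call also lost with that block (0.092). Without mutant sets 1 and 3 the differences were 0.52 for Zbtb16, 0.31 for Klf9, 0.05 for Dusp1 and -0.20 for Tsc22d3. Zbtb16 was lower distally in controls (-0.33 ± 0.0894, 0.015), and Sgk1 was higher there (0.53 ± 0.134, 0.0099). Tsc22d3 also stands among the rhythmic output genes.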
